A study of Mus musculus with 8 samples.

Results

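The mitochondrial respiratory chain was followed through its nuclear-encoded subunit genes in subcutaneous KPC tumours, a mouse model of pancreatic cancer. A gene was a member if its symbol began with Nduf followed by a, b, c, s or v and a digit, was Sdha to Sdhd, or began with Uqcr, Cox4 to Cox8 or Atp5. A member also needed at least 10 reads in each of the 8 libraries, and symbols ending in -ps and a digit were left out. Of 57132 rows of the gene table, 107 had a matching symbol, 8 of these were left out by the -ps ending and 12 were under the read floor. The 87 rows that remained held 83 subunit genes and 4 rows whose symbols end in a bare -ps, the ending used for pseudogenes, which are described apart. By symbol, 38 subunit genes belonged to complex I, 4 to complex II, 8 to complex III, 15 to complex IV and 18 to complex V. None of these criteria used the difference between the groups.

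Control mice received PBS, a buffered salt solution, and gave the 4 samples called PBS. The other 4 came from mice treated with Ce6@D4-EV and light, the targeted photodynamic therapy of the labels, and are called PDT. Ce6 is chlorin e6, a photosensitiser that produces reactive oxygen species when it is lit, and D4-EV is the submitters' name for its carrier. Strain, age and time of harvest are not given in the labels used here, no arm with light or carrier alone was analysed here, and whether each sample is a different animal is not said in the labels. The p-values therefore measure the spread between these samples, which may be partly technical. The labels call the tissue sorted without naming a gate. Genes of pancreatic tumour epithelium were present in every library, with summed levels of 10 marker genes between 3744 and 7629 counts-per-million (CPM) in PBS and between 3273 and 6503 CPM in PDT.

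Complexes I to IV carry electrons from NADH and succinate to oxygen and, except for complex II, pump protons across the inner mitochondrial membrane. Complex V, the ATP synthase, uses the proton gradient to make ATP. Complex II is built from nuclear genes alone, whereas the other complexes combine nuclear subunits with a few that the mitochondrial genome encodes. The catalytic subunits hold the flavin, iron-sulphur or nucleotide sites, and the accessory subunits, most of them small, surround and stabilise them.

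Many respiratory chain promoters are known to bind NRF1 and the ETS factor GABPA, regulators of mitochondrial gene expression. Promoters of 300 bases, from 250 before to 50 after the gene start, were found in RefSeq for 67 of the 83 subunit genes (build GRCm38.p6, 54 by symbol and 13 by synonym). Both strands were searched. The NRF1 motif GCGCANGCG was in 28.4% of these promoters, against 12.2% of the promoters of all tested genes and 6.47% of all 27025 promoters. The ETS motif CCGGAAG was in 22.4%, against 16.5% of tested genes and 9.12% of all promoters. The YY1 motif AANATGGCG was in 11.9%, against 4.71% and 2.51%, and the SP1 motif GGGCGG was in 38.8%, against 60.7% and 35.9%. A match describes letters and is not a binding site.

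The sequences below are shown because each motif stands in front of a gene with a small and a gene with a large difference between PDT and PBS. Each is the 100 bases that end just before the RefSeq start, written 5′ to 3′ in the direction of transcription, and all lie on the minus strand of GRCm38.p6. Capitals mark the NRF1 motif on either strand in Sdha (chr13:74350241-74350340), Ndufs6 (chr13:73328483-73328582) and Atp5me (chr5:108434400-108434499). They mark the ETS motif on either strand in Ndufs3 (chr2:90904722-90904821), Cox6b1 (chr7:30626115-30626214) and Uqcr11 (chr10:80406822-80406921).
Sdha: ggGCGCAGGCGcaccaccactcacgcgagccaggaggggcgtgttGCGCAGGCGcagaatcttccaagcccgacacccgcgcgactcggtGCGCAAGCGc
Ndufs6: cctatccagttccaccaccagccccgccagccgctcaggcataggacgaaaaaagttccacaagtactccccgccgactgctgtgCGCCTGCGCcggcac
Atp5me: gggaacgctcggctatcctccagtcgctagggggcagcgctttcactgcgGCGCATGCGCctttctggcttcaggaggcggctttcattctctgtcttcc
Ndufs3: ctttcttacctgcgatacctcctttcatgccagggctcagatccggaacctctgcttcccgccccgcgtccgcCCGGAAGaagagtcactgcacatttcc
Cox6b1: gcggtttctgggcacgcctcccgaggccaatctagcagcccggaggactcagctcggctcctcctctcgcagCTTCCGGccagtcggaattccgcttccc
Uqcr11: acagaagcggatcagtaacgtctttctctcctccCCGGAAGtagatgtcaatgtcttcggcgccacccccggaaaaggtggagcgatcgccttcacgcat
Sdha held 3 NRF1 motifs in this window, the nearest ending 1 base before the start, and its log2 difference was 0.27. Ndufs6 held 1, ending 6 bases before the start, with a log2 difference of 1.29. Over the 67 genes the median log2 difference was 0.38 with the NRF1 motif and 0.27 without it, and 0.24 with and 0.30 without the ETS motif.

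Subunit genes were mostly at higher levels in PDT, and no subunit passed the threshold of the test across all genes. In the fit over 16588 genes (edgeR's quasi-likelihood test, Benjamini-Hochberg adjusted p under 0.05), 39 genes were called, 0.235% of those tested, and 0 of the 83 subunits. All 83 had passed the low count filter. At an unadjusted p under 0.05, 35 of the 83 subunits were higher in PDT and 0 were lower, against 8.63% of all tested genes higher and 7.87% lower. Without regard to p, 72 of the 83 were higher and 11 lower. The median log2 fold change of the subunits was 0.31, and −0.00 for all tested genes. All 4 PDT values lay above all 4 PBS values in 12 subunits and below in 0, against 5.0% of all tested genes above and 5.12% below. DESeq2 called 18 subunits, all higher, where it called 3.12% of all genes higher. With limma-voom and quality weights Cox6b1, Ndufa3 and Ndufa4l2 were called, where 0.603% of all genes were called higher. Without PBS 4, edgeR called 9 subunits higher, among them Ndufa3, Cox6b1 and Atp5me, where it called 0.618% of all genes higher. Without PDT 2 it called Ndufa3 and Ndufa4l2, where it called 0.451% of all genes higher, and with any other library left out it called 0 subunits.

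**Figure D1:**
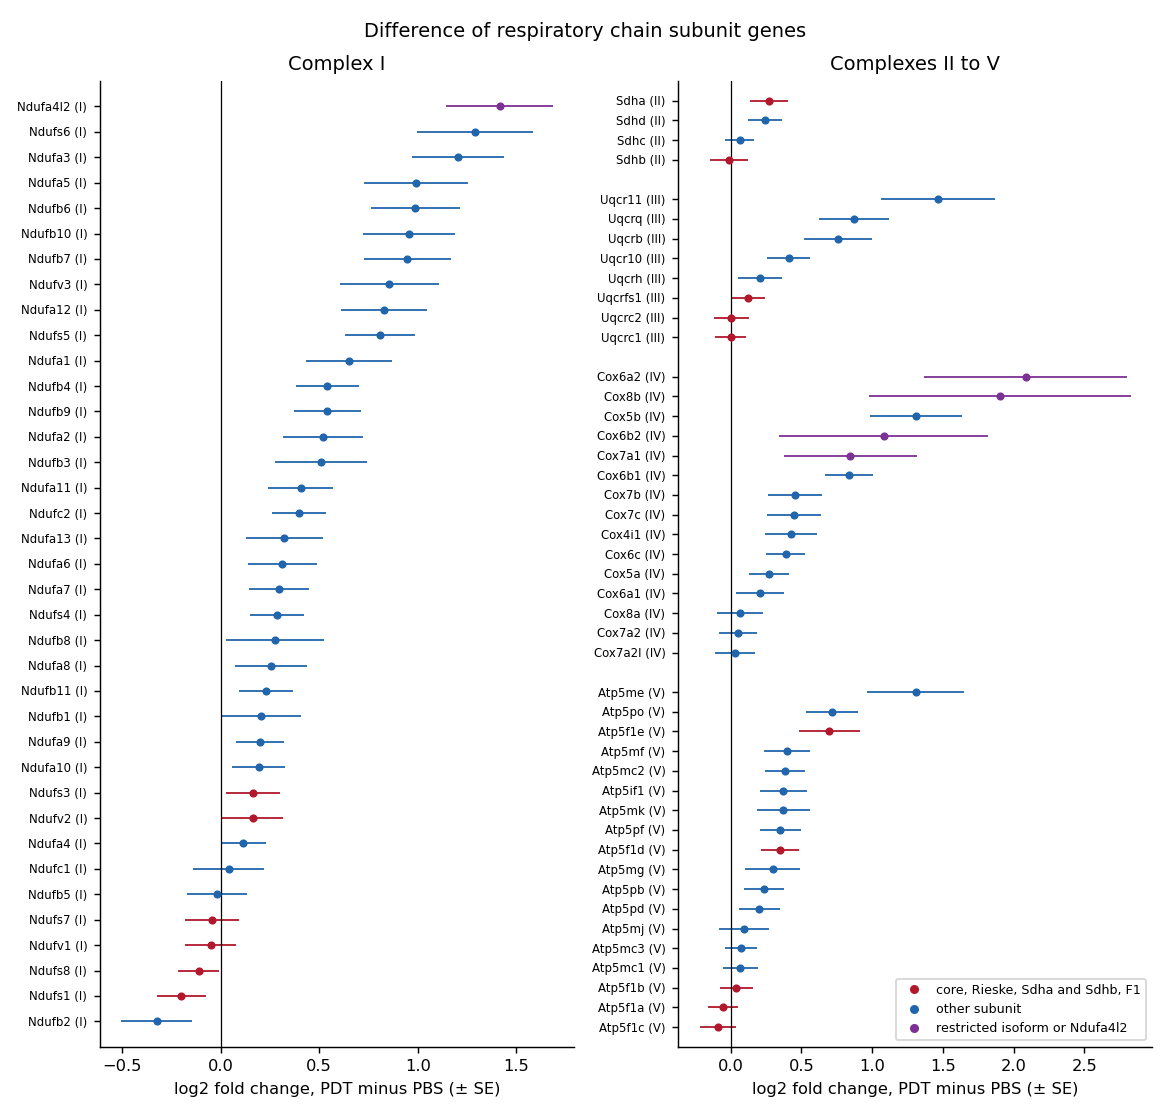
Log2 fold change, PDT minus PBS, of subunit genes (points, horizontal axis) with its standard error (bars), ordered within each complex and coloured by role. In complexes I and III the accessory subunits lie mostly to the right of 0 and the core subunits near 0.

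The subunits' share of all reads was 1.27%, 1.19%, 1.24% and 1.32% in the PBS libraries (1 to 4). In the PDT libraries it was 1.55%, 1.39%, 1.34% and 1.60%. The groups did not overlap in this share, and averaged 1.25 ± 0.0533% in PBS against 1.47 ± 0.127% in PDT (SD, n = 4). The PDT libraries were not alike: of the 83 subunits, 38 were highest in PDT 1 and 33 in PDT 4, while 33 were lowest in PBS 2. In tumour tissue, more cells of a type and more RNA per cell cannot be told apart. Immune cell markers were higher in PDT. All 12 macrophage markers were higher in PDT, Cd68 among them past the threshold, and their summed level was 2086 to 4202 CPM in PBS and 5057 to 6851 CPM in PDT. All 8 neutrophil markers and all 11 T and NK cell markers were also higher, and all 7 erythroid genes were lower. The summed neutrophil markers overlapped, at 103 to 251 CPM in PBS and 188 to 630 CPM in PDT. T and NK cell markers summed to 12.4 to 19.5 CPM in PBS and 31.6 to 35.0 CPM in PDT. Erythroid sums overlapped, at 810 to 4444 CPM in PBS and 591 to 1355 CPM in PDT. The part of these markers in the subunit differences was not tested.

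In complex I, which takes electrons from NADH, the catalytic core and the accessory subunits had different medians. Of 29 accessory subunits, 27 were higher in PDT, 15 of them at an unadjusted p under 0.05, and 9 without overlap between the groups. Of all tested genes 8.63% were higher at that p, and 5.0% were higher without overlap. These shares stand beside the counts of each complex. Their median log2 fold change was 0.41, with a range from −0.32 to 1.29. The 7 nuclear core subunits had a median of −0.04, with a range from −0.20 to 0.16, and 0 of them reached an unadjusted p under 0.05. That median turned to 0.00, 0.01 and 0.02 when PBS 2, PDT 2 or PDT 3 was left out, while the accessory median stayed between 0.36 and 0.52 over the 8 fits that leave out a library.

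Ndufa3 (ENSMUSG00000035674), a small accessory subunit of the membrane arm, was at 32.8, 37.8, 38.6 and 62.2 CPM in PBS 1 to PBS 4. In PDT 1 to PDT 4 it was at 95.8, 79.5, 79.2 and 140.6 CPM. Every PDT library was above every PBS library, and PBS 4 was the highest of its group. Mean Ndufa3 went from 42.8 ± 13.2 to 98.8 ± 28.9 CPM (SD, n = 4), a log2 fold change of 1.21 ± 0.24 (SE, adjusted p = 0.0566 by edgeR and 6.59e-05 by DESeq2). Ndufs5 (ENSMUSG00000028648), an accessory subunit of the intermembrane space, was at 20.6, 29.9, 25.9 and 32.9 CPM in PBS and 50.1, 43.5, 39.2 and 58.6 CPM in PDT. The groups of Ndufs5 did not overlap either, with a log2 fold change of 0.81 ± 0.18 (adjusted p = 0.0731 by edgeR). Of the remaining accessory subunits, Ndufs6, Ndufb6, Ndufb7, Ndufb10, Ndufa1, Ndufb4 and Ndufc2 also had groups that did not overlap. Ndufs6 (ENSMUSG00000021606), which carries a zinc site near the core, was at 17.6 to 24.3 CPM in PBS and at 47.7, 35.2, 32.3 and 90.6 CPM in PDT, and PDT 4 was the highest. These 7 genes were picked out after their values were seen, for their order alone.

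The core subunits differed little in the same libraries, before the correction for GC content and length described below. Ndufv1 (ENSMUSG00000037916), the flavin subunit that binds NADH, was at 127, 125, 128 and 121 CPM in PBS and at 122, 107, 107 and 147 CPM in PDT, a log2 fold change of −0.05 ± 0.13. Ndufs1 (ENSMUSG00000025968), the largest iron-sulphur subunit of the NADH arm, had the lowest value of the 7, −0.20 ± 0.13 (adjusted p = 0.471 by edgeR), with 53.5 to 69.8 CPM in PBS and 49.8 to 58.4 CPM in PDT. Both genes overlapped between the groups. Among accessory subunits Ndufb2 had the lowest value, −0.32 ± 0.18. Ndufb2 and the core subunits are named here after their values were seen.

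**Figure D2:**
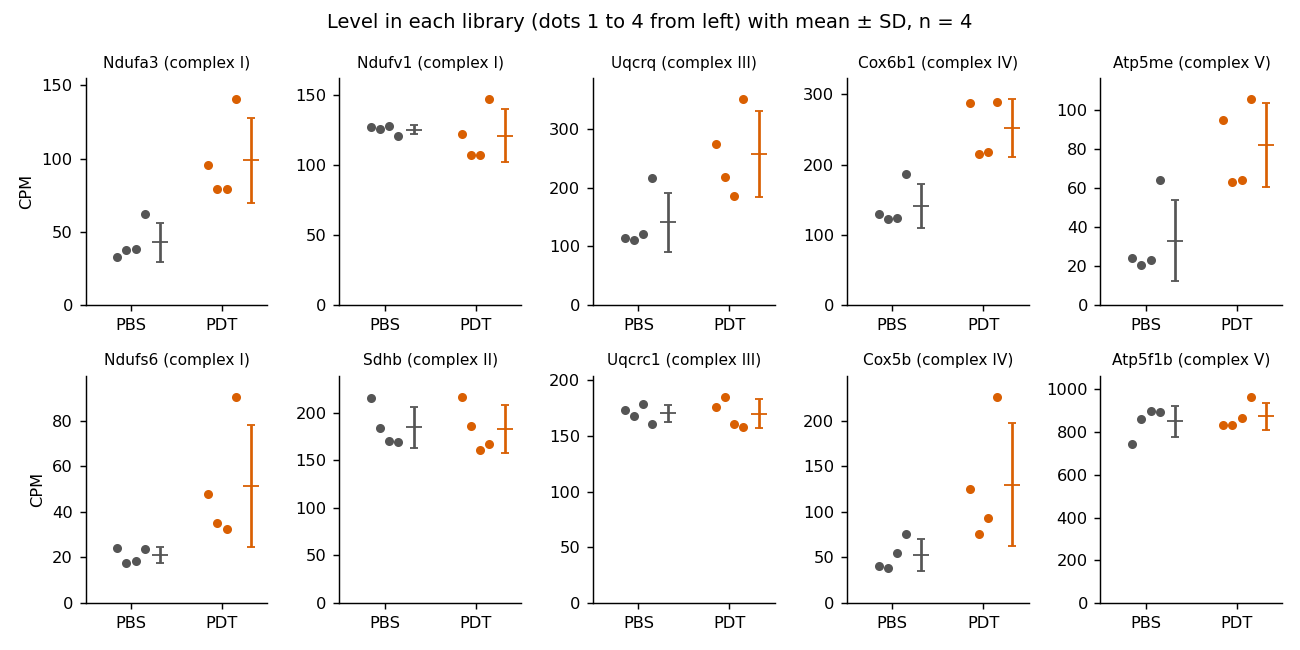
CPM (vertical axis, from 0) of 10 subunit genes in each of the 4 PBS and 4 PDT libraries, as dots with the mean ± SD (n = 4) beside them. Ndufa3, Ndufs6 and Cox6b1 do not overlap between the groups, Uqcrq, Cox5b and Atp5me overlap through PBS 4, and Ndufv1, Sdhb, Uqcrc1 and Atp5f1b have overlapping groups with close means.

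A pair of genes carries complex I names without being classed with its core or accessory subunits here. Ndufa4 (ENSMUSG00000029632) is found in complex IV in spite of its name and had the highest mean level among complex I names. It was at 361, 291, 326 and 354 CPM in PBS and 369.7, 373, 331 and 367 CPM in PDT, a log2 fold change of 0.11 ± 0.11. Its paralogue Ndufa4l2 (ENSMUSG00000040280), known as a hypoxia-inducible gene that is also high in pericytes, was at 19.0, 19.9, 17.7 and 23.4 CPM in PBS. In PDT it was at 91.2, 33.0, 45.0 and 44.3 CPM, above PBS in every library and highest in PDT 1. Its log2 fold change was 1.42 ± 0.27, with the smallest adjusted p of all subunits, 0.056 by edgeR. Of 10 other hypoxia genes, in a list added after the data were seen, 8 were lower in PDT, and the list's median was −0.22. Of 8 pericyte markers, added likewise, 7 were higher, with summed levels of 55.9 to 63.9 CPM in PBS and 66.0 to 84.9 CPM in PDT. Their part in the Ndufa4l2 difference was not tested.

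Complex II, succinate dehydrogenase, also belongs to the tricarboxylic acid cycle, and its 4 genes differed little between the groups. The median log2 fold change was 0.15, and 0 of the 4 reached an unadjusted p under 0.05 or were called by DESeq2. Sdha (ENSMUSG00000021577), the flavoprotein, was at 109, 129, 121 and 146 CPM in PBS and 150.3, 136, 145 and 178 CPM in PDT, a log2 fold change of 0.27 ± 0.13 (adjusted p = 0.341 by edgeR). Sdhb (ENSMUSG00000009863), the iron-sulphur subunit, was at 215, 184, 169.9 and 169 CPM in PBS and 217, 186, 161 and 167 CPM in PDT, a log2 fold change of −0.01 ± 0.13. Sdha and Sdhb thus overlapped between the groups, Sdha by PBS 4 alone against PDT 2 and PDT 3. The membrane anchors Sdhc (ENSMUSG00000058076) and Sdhd (ENSMUSG00000000171) had log2 fold changes of 0.06 ± 0.10 and 0.24 ± 0.12. Sdhc ran from 167 to 179 CPM in PBS and from 169 to 193 CPM in PDT, and Sdhd from 122 to 147 CPM and from 144 to 174 CPM.

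Complex III passes electrons from ubiquinol to cytochrome c. The median log2 fold change of its 5 small accessory subunits was 0.76, with 4 of 5 at an unadjusted p under 0.05 and 0 without overlap. The core proteins Uqcrc1 and Uqcrc2 and the Rieske protein Uqcrfs1, which holds the iron-sulphur centre, had log2 fold changes of −0.00 ± 0.11, 0.00 ± 0.12 and 0.12 ± 0.12. Uqcr11 (ENSMUSG00000020163), the smallest subunit, was at 23.0, 28.0, 34.5 and 47.4 CPM in PBS and 68.6, 45.3, 61.2 and 192 CPM in PDT. PDT 4 stood far above the rest, and PBS 4 overlapped with PDT 2. The log2 fold change of Uqcr11 was 1.47 ± 0.40 (adjusted p = 0.109 by edgeR and 0.0607 by DESeq2), and it was 0.82 ± 0.24 without PDT 4. Uqcrq (ENSMUSG00000044894), beside cytochrome b, was at 114, 111, 122 and 216 CPM in PBS and 275, 217, 186 and 351 CPM in PDT, a log2 fold change of 0.87 ± 0.25 (adjusted p = 0.117 by edgeR). Here PBS 4 lay above PDT 3. Uqcrb (ENSMUSG00000021520), which helps to form the quinone pocket, went from 30.9 to 59.4 CPM in PBS to 51.1 to 90.6 CPM in PDT, a log2 fold change of 0.76 ± 0.24. Uqcrh (ENSMUSG00000063882), the hinge protein that binds cytochrome c1, had the highest mean level of the complex, with 269.6 to 335 CPM in PBS, 286 to 448 CPM in PDT and a log2 fold change of 0.21 ± 0.16.

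Complex IV, cytochrome c oxidase, reduces oxygen, and its catalytic subunits are mitochondrially encoded, so that its 15 nuclear genes encode other subunits. All 15 were higher in PDT, their median log2 fold change was 0.45, and 7 had an unadjusted p under 0.05. In the correction for GC content and length described below, 11 of the 15 were higher. Without 4 isoforms of restricted expression the median was 0.39. Cox6b1 (ENSMUSG00000036751), which faces the intermembrane space, was at 130.4, 123, 123 and 187 CPM in PBS and 287, 215, 218 and 288 CPM in PDT. It was the only gene of the complex whose groups did not overlap, with a log2 fold change of 0.84 ± 0.17 (adjusted p = 0.0604 by edgeR and 0.000355 by DESeq2). Cox5b (ENSMUSG00000061518), a zinc-binding subunit on the matrix side, was at 40.8, 38.1, 54.5 and 75.9 CPM in PBS and 125, 75.1, 92.6 and 226 CPM in PDT. PDT 2 lay just under PBS 4, and the log2 fold change was 1.31 ± 0.33 (adjusted p = 0.0974 by edgeR). Cox4i1 (ENSMUSG00000031818), the regulatory subunit with the highest mean level of the complex, was at 489, 518, 532 and 764 CPM in PBS and 931, 617, 646 and 901 CPM in PDT, a log2 fold change of 0.43 ± 0.19.

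Complex V is a rotary enzyme with a catalytic F1 head, a peripheral stalk and a membrane part with a ring of c subunits. Of its 18 genes, 16 were higher in PDT, 8 at an unadjusted p under 0.05, and the median log2 fold change was 0.32. The genes of the F1 head and central stalk differed among themselves. Atp5f1a, Atp5f1b and Atp5f1c, the large head and stalk subunits, had log2 fold changes of −0.05 ± 0.11, 0.04 ± 0.12 and −0.09 ± 0.13, whereas the small stalk subunits Atp5f1d and Atp5f1e had 0.35 ± 0.13 and 0.70 ± 0.21. Atp5f1b (ENSMUSG00000025393), the catalytic beta subunit with the highest mean level of all 83 genes, was at 744, 862, 901 and 893 CPM in PBS and 832, 833, 865 and 966 CPM in PDT. Atp5f1e (ENSMUSG00000016252), the epsilon subunit, was at 327, 247, 244 and 409 CPM in PBS and 646, 424, 361 and 559 CPM in PDT. Medians were 0.29 for 4 peripheral stalk genes, 0.07 for 3 genes of the c ring and 0.37 for 5 other membrane subunits, and Atp5if1, the inhibitor that stops ATP hydrolysis, had 0.37 ± 0.17.

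Atp5po (ENSMUSG00000022956), the stalk subunit that confers oligomycin sensitivity, was at 36.2, 24.0, 29.1 and 39.5 CPM in PBS and 67.1, 45.7, 47.6 and 51.2 CPM in PDT. It was the only gene of complex V whose groups did not overlap, with a log2 fold change of 0.72 ± 0.18 (adjusted p = 0.0978 by edgeR). A second identifier with the same symbol held 0 reads. Atp5me (ENSMUSG00000050856), the e subunit at the dimer interface, was at 24.1, 20.8, 23.2 and 64.4 CPM in PBS and 94.9, 63.0, 64.4 and 105.7 CPM in PDT. PBS 4 reached the level of PDT 2 and PDT 3, and the log2 fold change was 1.31 ± 0.34 (adjusted p = 0.102 by edgeR and 0.00224 by DESeq2).

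In the accessory subunits of complexes I and III, PDT 1 and PDT 4 were the highest libraries. Relative to the PBS mean, the median accessory subunit of complex I was −0.10 to 0.18 in the PBS libraries and 0.68, 0.27, 0.22 and 0.73 in PDT 1 to PDT 4 (log2 units). The accessory subunits of complex III were at 0.56 in PBS 4 and at 0.96, 0.47, 0.41 and 1.24 in PDT, so that PBS 4 lay above PDT 2 and PDT 3. In the core of complex I the PDT libraries were at −0.02, −0.02, −0.19 and −0.03, and in the core and Rieske proteins of complex III PDT 2 was the highest, at 0.16, and PDT 4 the lowest, at −0.09. PDT 1 and PDT 4 also had the lowest shares of mitochondrially encoded reads, 1.68% and 1.56% of all reads, against 2.14% and 2.27% in PDT 2 and PDT 3 and 2.26% to 3.14% in PBS.

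**Figure D3:**
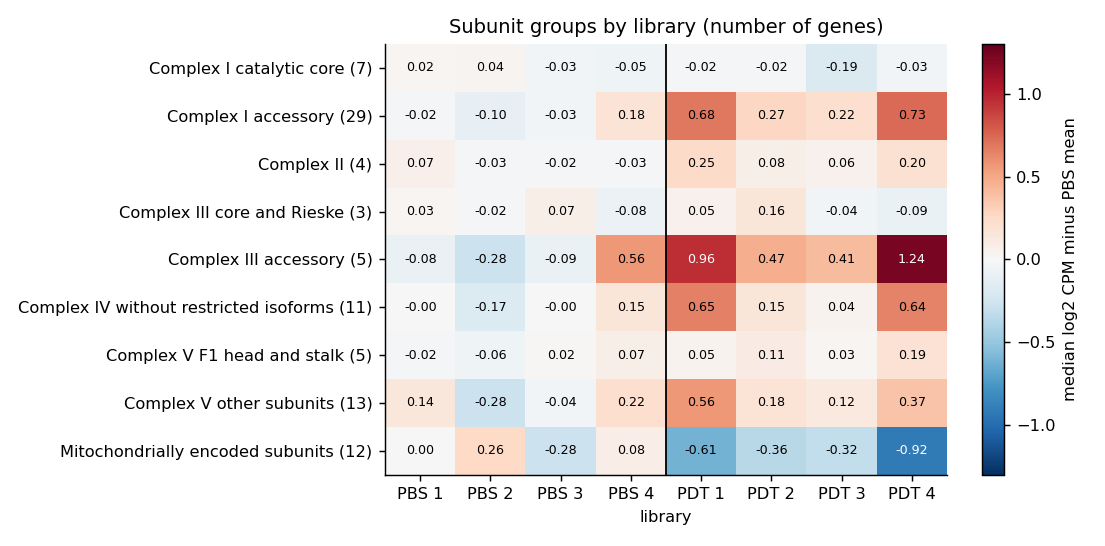
Median over the genes of each group (rows, number of genes in brackets) of log2 CPM minus the gene's PBS mean, in each library (columns, colour scale and printed values). The accessory rows of complexes I and III are highest in PDT 1 and PDT 4, the core rows stay near 0, and the mitochondrially encoded row runs from −0.32 to −0.92 in PDT.

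The difference of a subunit gene varied with the length of its transcript and with its level. Across the 83 genes, which are not independent replicates, the Spearman correlation of log2 fold change with transcript length was −0.55, and across 16274 tested genes with a known length it was −0.23. All points share the same 8 libraries. With mean log2 CPM the correlation across the 83 genes was −0.49, and length and level were not separated here. In PBS the core subunits of complex I had a mean log2 CPM of 6.95 and the accessory subunits 5.83. The core subunits of complex I have transcripts of 983 to 2661 bases, and the accessory subunits have a median of 763 bases. Between 500 and 750 bases the median log2 fold change was 0.39 for 31 subunits and 0.15 for all tested genes of that length, and 54.8% of the subunits against 15.9% of all such genes were higher at an unadjusted p under 0.05. Between 1000 and 1500 bases the medians were 0.14 and 0.17. There 21.4% of the subunits (3 of 14) against 17.8% of all such genes were higher at that p. The 11 accessory subunits of complex I with 900 bases or more had a median of 0.23, with 9 higher. In a fit corrected for GC content and length, the median of all subunits was 0.17, with 63 of 83 higher and 28 higher at an unadjusted p under 0.05, against 8.20% of all genes in that fit. The complex medians were then 0.16, 0.10, 0.15, 0.41 and 0.15 from complex I to V. Without the 4 restricted isoforms the complex IV median was 0.17, with 7 of 11 higher. The accessory and core medians of complex I were 0.31 and −0.17. In the corrected fit 1 of the 7 core subunits was higher. Ndufs8 and Ndufv1, named after their values were seen, were lower at an unadjusted p under 0.05, at −0.33 ± 0.10 and −0.25 ± 0.10. Their adjusted p by edgeR in this fit was 0.181 and 0.307. The share of all genes lower at that unadjusted p was 7.87% in the reported fit and was not counted in the corrected fit. The correlation with length after this correction was −0.42.

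**Figure D4:**
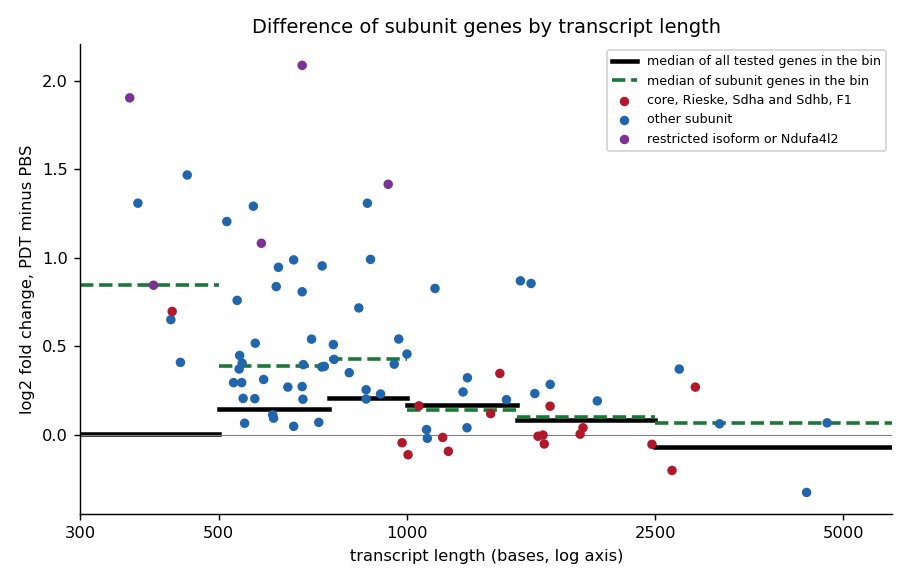
Log2 fold change, PDT minus PBS (vertical axis), of the 83 subunit genes against transcript length in bases (log axis), with the median of subunits (dashed) and of all tested genes (solid) in each length bin. The medians of subunits lie above those of all genes of their length under 1000 bases and close to them from 1000 to 2500 bases.

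Levels between genes were compared per kilobase of transcript. Complex IV genes had the highest median, 300.5 CPM per kb, followed by complex V with 241, complex III with 119, complex II with 87.3 and complex I with 82.9. The highest gene of all was Atp5f1e with 955 CPM per kb and the lowest Cox6b2 with 1.75.

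Several subunits have isoforms of restricted expression, some of them known from heart and skeletal muscle (Cox6a2, Cox7a1 and Cox8b) and one from testis (Cox6b2). Log2 ratios of restricted to ubiquitous isoform were compared within libraries for 5 pairs by two-sided exact permutation tests, whose smallest p over 70 assignments is 0.0286. Ndufa4l2 to Ndufa4 had ratios of −4.24, −3.87, −4.20 and −3.92 in PBS and −2.02, −3.50, −2.88 and −3.05 in PDT, higher in all 4 PDT libraries. The difference of 1.20 had an exact p of 0.0286, which is 0.143 after adjustment over the 5 pairs. With so few assignments, 1 pair alone at the smallest p could not pass 0.05 after this adjustment. Cox6a2 to Cox6a1 differed by 1.64 (exact p = 0.171), Cox7a1 to Cox7a2 by 0.69 (exact p = 0.171), Cox8b to Cox8a by 1.48 (exact p = 0.343) and Cox6b2 to Cox6b1 by −0.10 (exact p = 1). The ubiquitous partners Cox6a1, Cox7a2 and Cox8a had log2 fold changes of 0.20 ± 0.17, 0.05 ± 0.14 and 0.07 ± 0.17, and these were under 0, at −0.05, −0.14 and −0.17, in the fit corrected for GC content and length.

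Cox6a2 (ENSMUSG00000030785) was at 1.80, 6.58, 2.37 and 1.22 CPM in PBS and 13.6, 30.2, 3.90 and 3.27 CPM in PDT, a log2 fold change of 2.09 ± 0.72 (adjusted p = 0.177 by edgeR). Cox8b (ENSMUSG00000025488) was at 0.762, 3.62, 2.31 and 0.291 CPM in PBS and 3.19, 20.1, 1.56 and 1.42 CPM in PDT, a log2 fold change of 1.90 ± 0.93. Without PDT 2 the log2 fold change was 0.25 ± 0.77 for Cox8b and 1.23 ± 0.64 for Cox6a2. Both overlapped between the groups, and both were highest in PDT 2 and, within PBS, in PBS 2. Skeletal muscle markers had summed levels of 294, 1632, 379 and 66.8 CPM in PBS and 889, 4017, 503 and 186 CPM in PDT, so that PDT 2 and PBS 2 were again the highest of their groups. Of 13 muscle markers tested, 12 were higher in PDT, and Tnnc2 was at 0 in every library. Their part in the Cox6a2 and Cox8b differences was not tested. Cox7a1, the other muscle isoform named above, did not share this order of libraries. Among controls it was highest in PBS 1 (3.05 CPM, against 1.53 CPM for PBS 2). Among treated samples it was highest in PDT 4 (5.91 CPM, against 3.08 CPM for PDT 2). Cox7a1 (ENSMUSG00000074218) and Cox6b2 (ENSMUSG00000051811) had log2 fold changes of 0.85 ± 0.47 and 1.08 ± 0.74, with Cox7a1 at 1.52 to 3.05 CPM in PBS and 1.47 to 5.91 CPM in PDT and Cox6b2 at 0.334 to 0.894 CPM and 0.266 to 2.19 CPM.

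**Figure D5:**
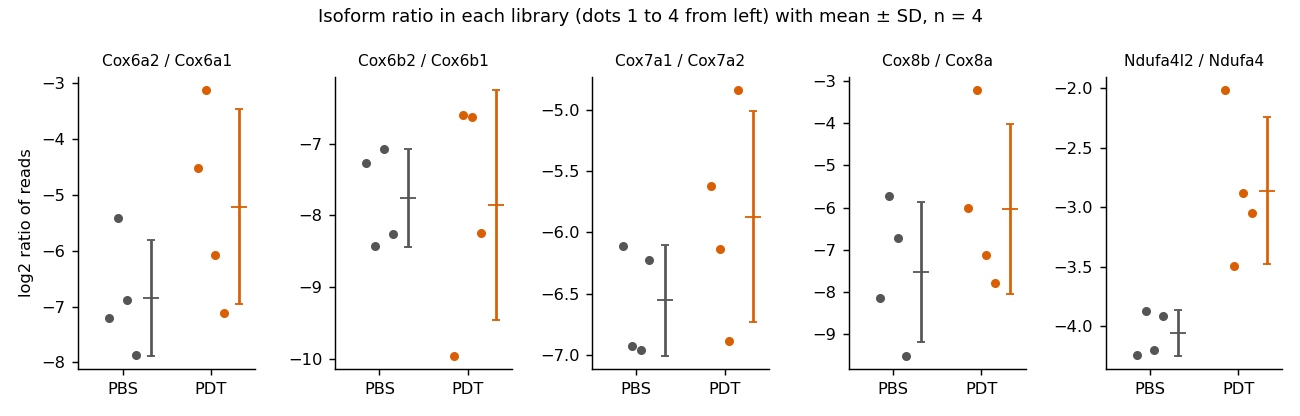
Log2 ratio of the reads of a restricted isoform to those of its ubiquitous partner (vertical axis) in each PBS and PDT library for 5 pairs, as dots with the mean ± SD (n = 4). In Ndufa4l2 to Ndufa4 the 4 PDT ratios lie above the 4 PBS ratios, and in the other 4 pairs the groups overlap.

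The rule's read floor divided rows of low level. Just inside it was Cox8b, with 10 reads in its lowest library, and just outside was Cox6c2, with 4 reads. Cox4i2, an isoform known from lung and from hypoxia, had 0 reads in PBS 1, which allows up to 0.0816 CPM for counting error only, and 1.22 to 4.42 CPM in the other 7 libraries. Cox7b2, Cox8c and Ndufb11b had 0 reads throughout. Of the 4 rows ending in a bare -ps, 0 were called, and their log2 fold changes were −0.11 for Ndufa12-ps, 0.93 for Ndufs5-ps, −0.50 for Cox5b-ps and −0.67 for Atp5l2-ps. Reads shared between a subunit and a near-identical pseudogene could be counted for either, and how the counting treated them is not given in the sources used here.

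The other genes of the pathway gave 0 calls by edgeR in every list. DESeq2 called 1 assembly factor of complex II, 1 of complex III, 2 of complex IV and 2 electron carrier genes, all higher. It called 3.12% of all genes higher. At an unadjusted p under 0.05, 8.63% of all tested genes were higher and 7.87% lower. All PDT values lay above PBS in 5.0% and below in 5.12%. These shares stand beside all list counts that follow. Of 16 assembly factors of complex I, 12 were higher in PDT, 4 of them at an unadjusted p under 0.05, and the median log2 fold change was 0.18. Ndufaf3, which acts early in its assembly, had 0.44 ± 0.18. Of the 4 factors of complex II 3 were higher, and Sdhaf1, which helps to fit iron-sulphur clusters into Sdhb, had 0.62 ± 0.16 (adjusted p = 0.101 by edgeR) with groups that did not overlap. Of 6 factors of complex III 5 were higher, 2 at an unadjusted p under 0.05, with Uqcc3 at 0.89 ± 0.27. The remaining gene, Ttc19, chosen after its value was seen, was lower at that p, at −0.43 ± 0.16, with every PDT value below every PBS value. Of 5 factors of complex V 3 were higher, with Tmem242 at 0.35 ± 0.13. Of 19 tested factors of complex IV 12 were higher, 7 at an unadjusted p under 0.05 and 1 lower at that p. Pet100, an assembly factor of that complex, was at 2.94, 2.67, 2.47 and 5.87 CPM in PBS and 16.8, 4.13, 10.2 and 44.3 CPM in PDT, a log2 fold change of 2.44 ± 0.60 (adjusted p = 0.0951 by edgeR). PDT 4 was again the highest library, and PBS 4 overlapped with PDT 2.

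Among 17 genes of electron carriers and ubiquinone synthesis 9 were higher, 3 at an unadjusted p under 0.05. Cycs, cytochrome c, was at 71.0, 68.0, 82.4 and 104 CPM in PBS and 120.5, 114, 108 and 194 CPM in PDT. Its groups did not overlap, and the log2 fold change was 0.72 ± 0.20 (adjusted p = 0.117 by edgeR). Of 14 regulators of mitochondrial biogenesis 6 were higher, 0 at an unadjusted p under 0.05, and 2 were lower at that p, with a median of −0.04 for the list. Ppargc1a, a coactivator of respiratory genes, had −1.43 ± 0.60 at levels of 0.599 to 3.53 CPM in PBS and 0.684 to 1.02 CPM in PDT. Yy1, a transcription factor chosen after its value was seen, had −0.26 ± 0.11 with every PDT value below every PBS value. Of 16 genes of the tricarboxylic acid cycle 10 were higher, 0 at an unadjusted p under 0.05, with a median of 0.03. Pdhb, a subunit of pyruvate dehydrogenase, was the 1 gene lower at that p, at −0.34 ± 0.12, with groups that did not overlap. In the fit corrected for GC content and length, 7 of these 16 genes were higher, with a median of −0.02. There 6 of the 17 electron carrier genes and 2 of the 5 complex V factors were higher, each list with a median of −0.05. The biogenesis list had 7 higher, and the assembly lists of complexes I to IV kept 12, 3, 5 and 12 higher.

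The mitochondrially encoded partners of these subunits went the other way. All 12 tested had a lower level in PDT, 8 with an unadjusted p under 0.05 and 7 with every PDT value below every PBS value. Their median log2 fold change was −0.59, and DESeq2 called 6 of them lower, where it called 2.12% of all genes lower. In the fit corrected for GC content and length, 1 of the 12 was higher and the median was −0.52. mt-Nd6, a membrane subunit of complex I, was at 685, 684, 600.0 and 454 CPM in PBS and 317, 366, 373 and 264 CPM in PDT, a log2 fold change of −0.87 ± 0.16 (adjusted p = 0.0515 by edgeR and 6.59e-05 by DESeq2). mt-Co1, a catalytic subunit of complex IV named after its values were seen, was at 9613, 13055, 9585 and 12159 CPM in PBS and 7234, 8742, 9328 and 5855 CPM in PDT. mt-Co2, mt-Co3 and mt-Atp6 had 5.94 to 20.6 CPM, and are uncertain since near-identical nuclear copies of mitochondrial sequence exist and the counting of shared reads is not given in the sources used here.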

How the data were processed

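Per the labels' protocols, ribosomal RNA was removed from the total RNA of 8 tumour samples before strand-marking library preparation. Raw read counts per gene are what the authors deposited. The submitters' processing notes name cutadapt 4.6, STAR 2.7.11b and GRCm39. The counter, its use of strand and the annotation were not given in the sources used here. Overlapping or antisense neighbours and near-identical copies are therefore uncertain. Library totals were 35742024 to 48804713 reads, and 77.9% to 83.8% of counts from 1 to 20 were even, the pattern of both reads of a pair counted singly. Floors for 0 reads (3 counts) cover counting error only.

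Counts were fitted in R 4.3.3 with edgeR 4.0.16 (filterByExpr, trimmed mean scaling, quasi-likelihood test, no covariate), adjusted over 16588 genes at 0.05, and the biological coefficient of variation was 0.392. CPM refers to the scaled library. Each standard error is the log2 fold change over the square root of its F value. Values relative to the PBS mean used a prior count of 2, and isoform ratios a pseudocount of 1. Lengths and GC content came from GENCODE transcripts of the preceding assembly, matched by identifier for 98.1% of tested genes and 100% of subunits, and were corrected with splines of 4 degrees of freedom. Each gene was given its longest transcript marked as principal, or else its longest. This put Ndufb2 at 4371 bases and a c ring gene at 4715 bases. Whether the tumours used these transcripts was not tested. On simulated data (PDT minus PBS, 15963 genes), 2.99% of genes changed 1.5-fold, 44.6% changed 2-fold and 75% changed 4-fold were recovered, with 4 false calls of 80. The changed genes were random, of any level and in both directions, and each gene was drawn independently. Subunits had a mean log2 CPM of 6.43 in PBS, against 3.40 for all tested genes, and shared library differences. These rates may therefore not hold for the subunits.

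Members and gene lists were chosen with earlier results of these data known. Genes named were, per complex, the 3 with the smallest p and the 1 with the highest mean CPM, all isoform pairs with reads, Sdha to Sdhd, and the gene with the smallest p of each other pathway list, and others are marked as chosen later or describe a whole role group. Alternatives were other scalings, filters, DESeq2 1.42.0, limma 3.58.1, a replicate block, each library left out, counts divided by 2 and the GC and length correction. Counting the 4 rows ending in -ps with the subunits was added after the data were seen. A subunit gene counted in the totals is not reported here by name.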

Additional observations from a re-analysis of the deposited data

Results flagged for a closer look

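Dixon's criterion was applied to 64 groups of 4 libraries, from the 27 named genes and the mean levels of the 5 complexes. In 7 of them, all of genes, 1 library lay far from the other 3, where chance flags about 1 in 20 groups. PBS 4 was the high library in 4 of them. Uqcrq was at 216.3 CPM in PBS 4, against 111.0 to 121.7 CPM in the other PBS libraries, and Cox4i1 at 763.8 CPM, against 489 to 532 CPM. Cox6b1 was at 187.3 CPM in PBS 4, against 123 to 130.4 CPM, and Atp5me at 64.37 CPM, against 20.8 to 24.1 CPM. In PDT 4, Uqcr11 was at 192.4 CPM, where the remaining PDT libraries held 45.3 to 68.6 CPM. Cox8b, the muscle isoform, was at 20.13 CPM in PDT 2, against 1.42 to 3.19 CPM. Ndufa4 was low in PDT 3, at 331.2 CPM, against 367 to 373 CPM.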

How the results depend on the processing

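The median log2 fold changes by complex stayed within 1 SD between libraries of the reported values in all 100 comparisons with an alternative. That SD is wide beside the medians. The GC and length correction took complex I from 0.30 to 0.16, complex III from 0.31 to 0.15 and complex V from 0.32 to 0.15, still within it. In complexes II and III, dropping the read floor or counting rows ending in -ps added no tested gene, so those medians could not move. The number of subunits called, 0 by edgeR as reported, was 1 with upper quartile scaling, 19 without a count filter, 2 with at least 1 CPM in 4 libraries, 18 with DESeq2, 3 with limma-voom and 0 to 9 with a library left out. For all genes, the 39 called became 69 with upper quartile scaling, 534 without a filter, 88 with at least 1 CPM, 869 with DESeq2, 167 with limma-voom, 67 with counts divided by 2, 10 with the GC and length correction and 0 to 122 with a library left out. Replicate numbers are shared by the groups, and the labels used here do not say whether they pair the samples. Same-numbered deviations correlated at 0.038 to 0.069, and no sample correlated best with its own number. Samples of unlike number correlated at −0.124 to 0.136. With 4 samples a group, such correlations cannot decide whether the samples are paired. With the number as a replicate block, 182 genes and 13 subunits were called. Values that changed sign did so with the GC and length correction (Cox6a1 −0.0472, Cox7a2 −0.136, Cox8a −0.169, Atp5f1b −0.0771 and Cox4i2 −0.0275), with limma-voom (Cox7a2 −0.00399) or with a library left out. Over the fits with a library left out, Sdhb ran from −0.0971 to 0.0711, Cox7a2 from −0.0383 to 0.134, Cox8a from −0.109 to 0.169, Atp5f1b from −0.0154 to 0.0784, Cox4i2 from −0.213 to 0.789 and the ratio of Cox6b2 to Cox6b1 from −0.518 to 0.602. Of the comparisons of named genes with an alternative, 427 kept direction and side of the threshold, 15 changed sign and 43 passed the threshold that the reported fit missed. The cause of these differences was not tested. The lowest read count in any library was 487 or more for every subunit except the 4 restricted isoforms, where it was 10 to 58.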
